A study of Mus musculus with 9 samples.

Results

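E14 mouse embryonic stem cells that had been withdrawn from self-renewal medium for 72 h in the presence of CK666 were compared with E14 cells that stayed in self-renewal medium. The comparison uses the 3 libraries titled CK666 72h -LIF2i and the 3 titled Control +LIF2i, which are 6 of the 9 poly-A RNA-seq libraries of the series. E14 is a feeder-independent line from the inner cell mass of a mouse blastocyst, and all cultures grew on gelatin in medium with serum. Self-renewing cells received the cytokine LIF, PD0325901 at 1 µM, which inhibits the ERK kinase MEK, and CHIR99021 at 1 µM, which inhibits glycogen synthase kinase 3 beta; together these are called LIF2i. CK666 cells lost all of them at the start of the 72 h and received 80 µM CK666, an inhibitor of the Arp2/3 complex, from a DMSO stock and with each daily change of medium. Whether the other cultures received DMSO is not stated. The groups therefore differ in LIF, in both kinase inhibitors, in CK666 and possibly in its solvent, and the parts of these in a difference cannot be told apart in this comparison. The other 3 libraries are withdrawn controls (Control 72h -LIF2i, no CK666), whose levels are given beside a result to show where ordinary withdrawal puts the same gene. Everything comes from 1 cell line. The series calls its 3 replicates per condition biological and paired, without saying what the replicates of a pair share.

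LIF acts through its receptor and the transcription factor STAT3, and with the inhibitors of MEK and glycogen synthase kinase 3 it holds embryonic stem cells in naive pluripotency, the state of the preimplantation epiblast. When these are removed the cells lose the naive transcription factors, reactivate ERK signalling and pass through a formative state like the epiblast just after implantation, with rising DNA methyltransferases and a more epithelial character. The Arp2/3 complex starts new actin filaments on the sides of existing ones; CK666 holds the complex in its inactive shape. Actin dynamics also reach the nucleus, because unpolymerised actin binds and retains MRTF, the coactivator of the transcription factor SRF, which drives genes of the actin cytoskeleton.

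Library totals ran from 16894327 to 22550952 estimated counts over the 9 libraries, and 15637 to 18636 genes had a count. Levels are given as CPM (counts per fixed library size, with scaling factors from all 9 libraries) for replicates 1, 2 and 3 in that order. At these totals 3 counts, taken as the floor of detection, are 0.133 to 0.178 CPM, which covers counting error only. Log2 fold changes are CK666 withdrawn over self-renewing cells, from a fit of these 6 libraries with the replicate number as a block, and each has a standard error (SE); "rose by" and "fell by" give the size on this scale. A gene was called raised or lowered at an adjusted p under 0.05 over all 14098 genes tested. Simulated counts gave a share of false calls above that threshold, so calls close to it are the least certain. A gene that was not called was counted as within 2-fold of the self-renewing level where the 95% interval of its log2 fold change lay wholly between -1 and 1, and as undecided otherwise; the interval is not adjusted for the number of genes. Replicate 1 stood apart from replicates 2 and 3 in both groups. In self-renewing cells the summed CPM of 55 cytosolic ribosomal protein genes was 21710.0, 64518 and 57124, and with CK666 it was 36542, 62967 and 56637. What distinguishes replicate 1 is not given in the labels, and its part in the results is shown by fits without it.

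More genes were within 2-fold of the self-renewing level and not called than were called, and the called genes went both ways. Of the 14098 genes tested, 2236 (15.9%) were raised and 1845 (13.1%) lowered in CK666 withdrawn cells, 28.9% in all. A further 6291 genes (44.6%) were within 2-fold and not called, and 3726 (26.4%) were undecided. The order of these counts depends on the bound: 2585 genes, called or not, had an interval within 1.5-fold, fewer than the 4081 called. The call does not mean a large change, since 571 called genes (4.05% of those tested) had an interval inside the 2-fold bound. All CK666 libraries lay on 1 side of all self-renewing ones for 37.6% of genes. In the fit of all 9 libraries, 21.1% of 14648 genes were raised and 19.7% lowered in withdrawn controls. The number called was 2244 without the replicate block, 5744 without replicate 1 and 1608 without replicate 3. Lists of genes by function were read against these shares and against the median log2 fold change over all genes, which was 0.01.

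Functions that left the self-renewing level were naive pluripotency and the LIF and STAT3 response, which fell, and the formative genes, ERK feedback inhibitors, SRF targets, tight junction genes, YAP pathway genes and imprinted genes, which rose. Glycolysis and hypoxia genes also fell. In each of these lists most of the tested members were called in 1 direction, as were 2 of 3 actin isoforms, a count that was 1 without the replicate block and 0 without replicate 2, without replicate 3 or with no low-count filter. In all, 10 of 47 lists met that mark, 5 without the block, 20 without replicate 1, 4 without replicate 2 and 5 without replicate 3. The naive, formative and LIF lists met it in all of these fits. The ERK, tight junction, YAP and imprinted lists lost it without the block, the ERK, SRF, tight junction, YAP and glycolysis lists without replicate 2, and the SRF, tight junction, YAP and glycolysis lists without replicate 3. Functions that kept their level were those of the general pluripotency factors, the Arp2/3 complex itself, mitosis, respiration, ribosomal proteins and mitochondrial transcripts, in each of which at least 7 in 10 tested members were within 2-fold and not called. Without replicate 1 this changed for 3 of them, with 30 of 53 respiratory genes lowered, 4 of 9 Arp2/3 subunits lowered and, of 10 general pluripotency genes, 2 raised and 4 lowered.

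**Figure D1:**
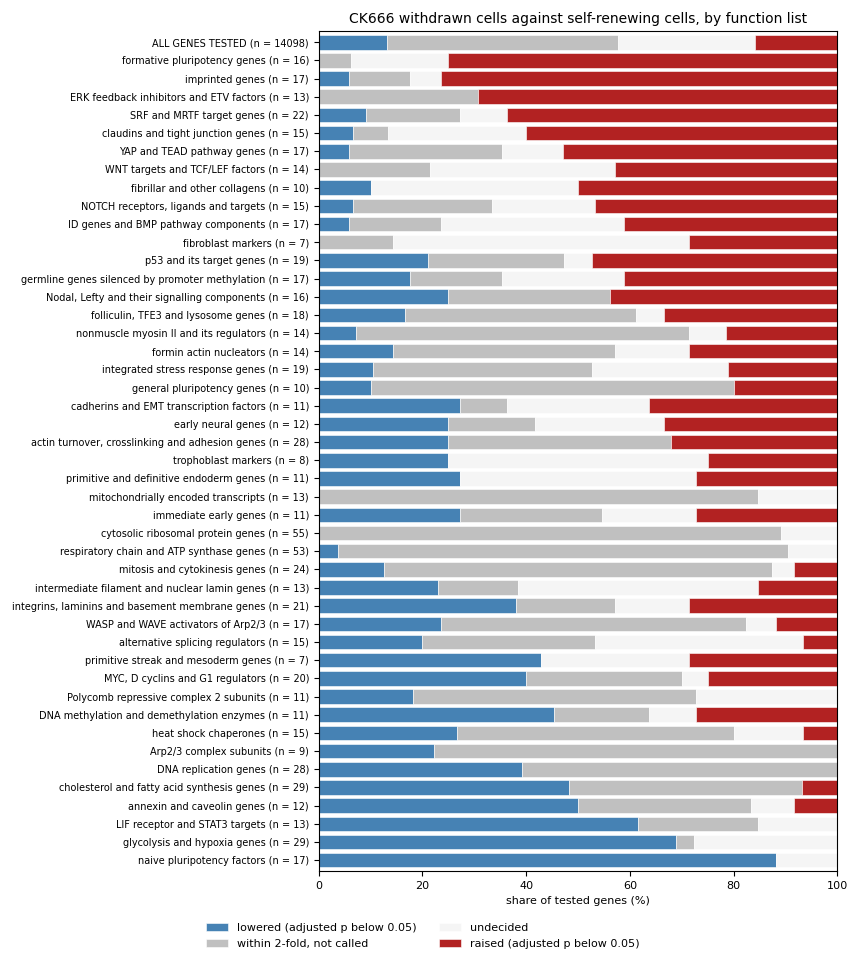
Share of the tested genes of each function list, in percent, that were lowered, within 2-fold, undecided or raised in CK666 withdrawn cells against self-renewing cells (3 libraries each; lists with 7 or more tested genes, with their number in brackets). The bar of all 14098 genes is at the top, lists with mostly raised genes follow it, and the naive factors, with 15 of 17 lowered, are at the bottom.

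Naive pluripotency genes, most of them transcription factors, fell together. Of 17 tested members 15 were lowered and 2 undecided, with a median log2 fold change of -3.01, against -4.25 in withdrawn controls. Klf4, a Krüppel-like factor that STAT3 induces directly (chromosome 4, 55527143 to 55532466 on GRCm38, the build of all positions given here), stood at 348, 167 and 249 CPM in self-renewing cells and at 5.92, 5.21 and 3.30 CPM with CK666 (log2 fold change -5.69, SE 0.27, adjusted p = 0.00013). All CK666 libraries were far below all self-renewing ones and overlapped the withdrawn controls, at 3.62, 3.63 and 6.10 CPM. Tcl1, an AKT coactivator of naive cells, went from 129, 157 and 144 CPM to 2.37, 7.81 and 2.51 CPM (log2 fold change -5.25, SE 0.34, adjusted p = 0.00031). Nr5a2, a nuclear receptor that binds the Pou5f1 gene, went from 157, 68.0 and 84.1 to 10.2, 5.21 and 3.35 CPM (log2 fold change -4.08, SE 0.23, adjusted p = 0.00019). Both had separate groups, with every CK666 library lower. Klf5 and the naive signalling ligand Fgf4 fell less, with log2 fold changes of -2.63 and -1.67 (adjusted p = 0.00033 and 0.0017). Tbx3, a T-box factor of naive cells, took an intermediate level: it read 375, 121 and 177 CPM in self-renewing cells, 32.2, 75.8 and 47.5 CPM with CK666 and 7.33, 3.89 and 5.40 CPM in withdrawn controls (log2 fold change -2.02, SE 0.52, adjusted p = 0.031 against self-renewing cells). Its CK666 libraries lay between the other groups without touching either. The undecided members were Gbx2 (interval -1.29 to 1.12) and Dppa3, also called Stella (-1.88 to 0.75). Leaving out replicate 3 gave an adjusted p of 0.19 for Tbx3. With no low-count filter it was 0.31 for Tbx3. With length-scaled counts it was 0.053 for Tbx3.

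The receptor chain of LIF fell with its targets. Of 13 tested members 8 were lowered, 3 were within 2-fold and 2 undecided (median log2 fold change -1.74). Socs3, the feedback inhibitor that STAT3 induces, read 137, 294 and 243 CPM in self-renewing cells, 4.93, 10.1 and 12.8 CPM with CK666 and 7.67, 18.5 and 21.6 CPM in withdrawn controls (log2 fold change -4.62, SE 0.18, adjusted p = 0.00011). The 2 withdrawn groups overlapped and both lay below every self-renewing library. Lifr, the LIF receptor, went from 109.5, 111 and 111 to 32.1, 42.4 and 26.0 CPM (log2 fold change -1.74, SE 0.17, adjusted p = 0.00097), and its signalling partner Il6st, or gp130, fell by 1.06 (adjusted p = 0.0055). Stat3 itself went from 202, 191 and 186 to 36.0, 75.6 and 65.7 CPM (log2 fold change -1.77, SE 0.24, adjusted p = 0.0028). Bcl3, an atypical inhibitor of NF-kappa-B and STAT3 target, fell by 3.21 (SE 0.19, adjusted p = 0.00025). Pim1 and Pim3, kinases that STAT3 induces in many cells, stayed within 2-fold, with intervals of -0.16 to 0.46 and -0.17 to 0.41, and so did the kinase Jak1 (-0.19 to 0.41). The count of 8 was the same in all fits with 1 replicate left out and without the block.

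Most general pluripotency genes stayed within 2-fold, while Sox2 fell. Of 10 general pluripotency genes 7 were within 2-fold, 2 were raised and 1 was lowered. Pou5f1, which encodes OCT4, read 767, 1748 and 1492 CPM in self-renewing cells and 1155, 1262 and 1111 CPM with CK666, a log2 fold change of -0.10 with an interval of -0.69 to 0.49. For Pou5f1 14.1% of exonic bases also belong to another annotated gene. Its self-renewing libraries spanned the CK666 libraries on both sides, replicate 1 being the low one. Sox2, the partner of OCT4, was the lowered member, at 262, 549 and 576 CPM against 129, 165 and 92.9 CPM (log2 fold change -1.79, SE 0.29, adjusted p = 0.0057). Utf1, a chromatin factor of pluripotent cells, rose from 30.2, 60.5 and 72.7 to 346, 278 and 246 CPM (log2 fold change 2.48, SE 0.33, adjusted p = 0.0027), and Lin28a, which blocks let-7 maturation, rose by 1.47 (adjusted p = 0.0082). Trim28, a corepressor of retroelements, Zfp281, Dppa2, Dppa4 and L1td1 were among those within 2-fold. Without replicate 1 the lowered members numbered 4, and with all 9 libraries, DESeq2, limma voom, RLE factors or no low-count filter 2. Leaving out replicate 1 added a call of Pou5f1 (-0.43, adjusted p = 0.0046).

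Formative genes rose. Of 16 tested members 12 were raised, 1 within 2-fold and 3 undecided (median 1.71, against 1.79 in withdrawn controls). Pou3f1, or OCT6, a POU factor of the postimplantation epiblast, read 7.71, 7.79 and 6.01 CPM in self-renewing cells, 107, 32.5 and 37.0 CPM with CK666 and 121, 129 and 118 CPM in withdrawn controls (log2 fold change 2.84, SE 0.34, adjusted p = 0.0018). The CK666 libraries were above all self-renewing ones and below all withdrawn controls. Sox3 went from 0.393, 0.993 and 1.46 to 24.5, 11.1 and 24.7 CPM (log2 fold change 4.41, SE 0.48, adjusted p = 0.0013), and Lef1, a WNT effector, from 0.983, 2.35 and 1.09 to 25.9, 11.6 and 21.0 CPM (log2 fold change 3.71, SE 0.50, adjusted p = 0.0029). Both groups were apart for each. Foxd3, a forkhead factor of the formative state, was the member within 2-fold: it read 4.96, 2.98 and 4.62 CPM in self-renewing cells, 8.91, 2.55 and 3.02 CPM with CK666 and 12.4, 11.9 and 7.18 CPM in withdrawn controls, a log2 fold change of 0.02 with an interval of -0.92 to 0.96. In withdrawn controls it was raised (log2 fold change 1.34, SE 0.38, adjusted p = 0.019). The undecided members were Zic2 (interval -0.21 to 1.58), Tcf15 and Rbpj.

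**Figure D2:**
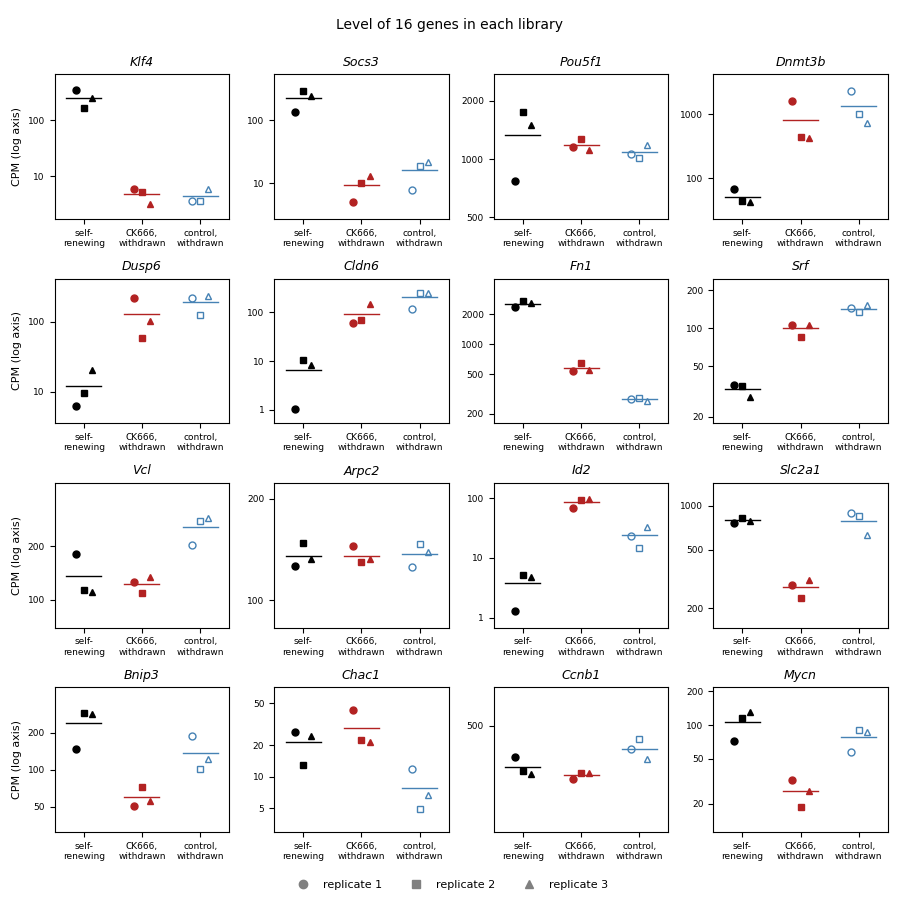
Levels of 16 genes in each library, in CPM on log axes, for self-renewing cells, CK666 withdrawn cells and withdrawn controls; markers are the 3 replicates and lines the group means. Klf4 and Socs3 are low and Dnmt3b, Dusp6, Cldn6, Srf and Id2 are high in every CK666 library against every self-renewing one, whereas Pou5f1, Arpc2, Ccnb1, Vcl and Chac1 overlap.

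Most ERK feedback genes rose. Of 13 tested members 9 were raised and the other 4 were within 2-fold; the median log2 fold change was 1.24, against 1.61 in withdrawn controls. Dusp6, the phosphatase that inactivates ERK in the cytoplasm, read 6.34, 9.72 and 20.2 CPM in self-renewing cells and 222, 59.1 and 102 CPM with CK666 (log2 fold change 3.30, SE 0.55, adjusted p = 0.0064). Dusp4, a nuclear ERK phosphatase, went from 7.37, 16.8 and 13.6 to 197, 147 and 166 CPM (log2 fold change 3.81, SE 0.32, adjusted p = 0.00056). Spry1, an inhibitor of receptor tyrosine kinase signalling, went from 11.8, 14.6 and 13.5 to 40.4, 41.0 and 42.7 CPM (log2 fold change 1.65, SE 0.17, adjusted p = 0.0010). In all of these the groups did not overlap. Etv5, an ETS factor downstream of ERK, held its level at 378, 341 and 392 CPM against 458, 398 and 275 CPM, with an interval of -0.45 to 0.46 around 0.00. Spry2, Spred2 and the cyclin Ccnd1 were the other members within 2-fold. The raised numbered 6 without the block and 6 without replicate 2. When replicate 2 was omitted, the adjusted p reached 0.30 for Dusp6. With no low-count filter it was 0.17 for Dusp6.

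The de novo DNA methyltransferases rose, while Tet1 and Tet2, which start the removal of DNA methylation, fell. De novo methyltransferase Dnmt3b (chromosome 2, 153649450 to 153687730) read 69.9, 44.4 and 42.8 CPM in self-renewing cells and 1596, 441 and 429 CPM with CK666 (log2 fold change 3.72, SE 0.28, adjusted p = 0.00046), and Dnmt3a rose by 2.20 (SE 0.33, adjusted p = 0.0040). Tet2, which oxidises methylcytosine, fell from 389.6, 101 and 174 to 32.5, 32.7 and 18.4 CPM (log2 fold change -2.83, SE 0.38, adjusted p = 0.0028), and Tet1 fell by 1.43 (adjusted p = 0.0098). Tet3, in contrast, rose by 1.34 (adjusted p = 0.0016), and the maintenance factor Uhrf1 fell by 1.15 (adjusted p = 0.0021). In all 3 of 11 enzymes were raised and 5 lowered; without replicate 3 the lowered numbered 3, and the fit of all 9 libraries raised 5. Polycomb repressive complex 2, which writes histone H3 lysine 27 methylation, had 6 of 11 subunits within 2-fold, near the share over all genes, including Ezh2 (interval -0.67 to 0.03), and 2 were lowered, Mtf2 (log2 fold change -1.09, SE 0.21, adjusted p = 0.011) and Suz12 (log2 fold change -0.62, SE 0.13, adjusted p = 0.014). The lowered subunits numbered 1 without the block, 5 without replicate 1, 1 without replicate 2 and 0 without replicate 3. With the block left out, the adjusted p became 0.067 for Suz12. Leaving out replicate 2 gave an adjusted p of 0.056 for Suz12. In the fit that omitted replicate 3, the adjusted p was 0.066 for Mtf2 and 0.088 for Suz12. With length-scaled counts it was 0.14 for Tet1. With replicate 1 left out, a call was gained for Ezh2 (-0.43, adjusted p = 0.020).

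Germline genes that are silenced by promoter methylation in somatic cells did not share a direction: of 17 tested, 7 were raised, 3 lowered, 3 within 2-fold and 4 undecided. Their summed CPM fell, from 1056, 774 and 955 in self-renewing cells to 342, 457 and 298 with CK666. DNA methylation was not measured. Tdrd1 and Mael, both of the piRNA pathway, were raised. Their promoters are shown because both hold CACGTG, the E-box form that MYC, MAX and MGA bind, within 250 bases upstream of the start; sequences are from RefSeq on GRCm38.p6, 5′ to 3′ on the gene's strand, with the motif in capitals.
Tdrd1, plus strand, chr19:56826129-56826208: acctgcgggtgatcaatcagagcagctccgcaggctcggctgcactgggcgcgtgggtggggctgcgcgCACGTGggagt
Mael, minus strand, chr1:166238915-166238994: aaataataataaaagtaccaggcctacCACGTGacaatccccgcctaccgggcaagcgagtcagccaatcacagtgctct
The motif reads the same on both strands and ends 5 bases before the start in Tdrd1, in 2 of its 3 listed windows, and 217 bases before it in Mael. It was found upstream of 10 of the 18 germline genes with a listed start and in 1978 of all 32851 windows (6.02%). Of the 10 genes with it, 6 were raised, 2 within 2-fold and 2 undecided. List genes were counted if any of their windows held the motif, and the share over all windows counts each window, so these are not directly comparable. A match describes the sequence and does not show that a factor is bound.

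Tdrd1 read 1.08, 1.25 and 1.21 CPM in self-renewing cells and 20.9, 18.1 and 16.6 CPM with CK666 (log2 fold change 3.97, SE 0.27, adjusted p = 0.00034). Mael read 9.19, 7.84 and 6.32 CPM and 47.4, 56.3 and 26.4 CPM (log2 fold change 2.43, SE 0.21, adjusted p = 0.00067). Every CK666 library was above every self-renewing one for both genes, and replicate 1 of the withdrawn controls, at 20.8, 10.8 and 8.58 and 28.7, 23.7 and 11.6 CPM, fell among the CK666 libraries. Meioc, a meiotic RNA-binding regulator, rose by 1.62 (SE 0.16, adjusted p = 0.0011), and the germ cell helicase Ddx4 by 1.46 (SE 0.17, adjusted p = 0.0018). Dazl, a germ cell RNA-binding protein, was undecided (interval -1.61 to 0.50), and Tex11 and Stk31 were within 2-fold. The lowered members included Zfp42, or REX1, which also belongs to the naive factors.

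Genes of tight junctions rose in most cases. Of 15 claudin and tight junction genes 9 were raised, 1 was lowered, 1 was within 2-fold and 4 were undecided (median 1.38); 4 were raised without replicate 3. Cldn6, a claudin of early epithelia, read 1.03, 10.4 and 8.38 CPM in self-renewing cells and 61.4, 71.1 and 146 CPM with CK666 (log2 fold change 4.09, SE 0.53, adjusted p = 0.0024). Epcam, an epithelial adhesion molecule, read 11.7, 73.2 and 63.2 CPM and 206, 325 and 375 CPM (log2 fold change 2.92, SE 0.37, adjusted p = 0.0023). Esrp1, an epithelial splicing factor, went from 0.393, 1.36 and 1.09 to 29.7, 44.5 and 78.7 CPM (log2 fold change 5.74, SE 0.30, adjusted p = 0.00018). Self-renewing replicate 1 was the lowest library for Cldn6 and Epcam, and no CK666 library overlapped the self-renewing ones for any of the 3 genes. Krt18, a simple-epithelial keratin, rose by 4.27 (SE 0.21, adjusted p = 0.00013), and P-cadherin Cdh3 by 3.23 (SE 0.17, adjusted p = 0.00016). Cdh1, or E-cadherin, did not leave the self-renewing level, at 1029, 707 and 654 CPM against 999, 856 and 866 CPM (interval -0.18 to 0.61). Lists that hold the other epithelial genes named here had no common direction: 2 raised and 3 lowered of 13 intermediate filament and lamin genes, 4 and 3 of 11 cadherins and EMT factors, and 1 and 3 of 15 splicing regulators. Without replicate 1 the raised filament genes numbered 6 and the lowered splicing regulators 7. Jam2, a junctional adhesion molecule of embryonic stem cells, was the lowered tight junction gene and fell by 5.99 (SE 0.40, adjusted p = 0.00032). With no low-count filter the adjusted p was 0.089 for Cldn6. Leaving out replicate 1 added a call of Cdh1 (0.35, adjusted p = 0.018).

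Components of the extracellular matrix moved both ways. Among 21 integrin, laminin and basement membrane genes 8 were lowered and 6 raised, with 4 within 2-fold; without replicate 3 the lowered numbered 5. Fn1, fibronectin, read 2352, 2714 and 2577 CPM in self-renewing cells, 534, 640.0 and 549 CPM with CK666 and 278, 286 and 268 CPM in withdrawn controls (log2 fold change -2.15, SE 0.17, adjusted p = 0.00052). Lama1, the alpha chain of laminin-111, went from 342, 186 and 212 to 27.4, 16.6 and 20.1 CPM (log2 fold change -3.50, SE 0.14, adjusted p = 0.00011), and Nid1, which links laminin to collagen IV, from 474, 515 and 355 to 28.7, 60.2 and 49.4 CPM (log2 fold change -3.32, SE 0.26, adjusted p = 0.00048). All 3 genes had separate groups, and for Fn1 the CK666 libraries also lay above all withdrawn controls. Raised members included Itga3, which pairs with integrin beta 1 in a laminin receptor (2.12, adjusted p = 0.00093), Itgb5 (1.42, adjusted p = 0.0043) and Lamb1 (1.48, adjusted p = 0.0084). Itgav and Hspg2, or perlecan, were within 2-fold. Of 10 collagen genes 5 were raised and 1 lowered (median 1.45), none lowered without the block or without replicate 2 or 3, and their summed CPM was 375, 252 and 203 in self-renewing cells and 1019, 704 and 669.6 with CK666. Anxa2, a calcium-dependent membrane and actin binder, read 36.8, 158 and 122 CPM against 6.02, 11.7 and 12.8 CPM (log2 fold change -3.21, SE 0.24, adjusted p = 0.00043), with 19.8, 61.7 and 74.5 CPM in withdrawn controls. Annexin and caveolin genes were lowered in 6 of 12 cases, 3 without the replicate block and 3 without replicate 3.

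The Arp2/3 complex, which CK666 inhibits as a protein, kept its transcripts at the self-renewing level: 7 of 9 subunit genes were within 2-fold and 2 were lowered. Arpc2, a core subunit that contacts the mother filament (chromosome 1, 74236084 to 74268209), read 127, 148 and 133 CPM in self-renewing cells and 145, 129.6 and 132 CPM with CK666, a log2 fold change of 0.01 with an interval of -0.31 to 0.32. Actr3, the actin-related protein ARP3, had an interval of -0.26 to 0.40. Actr2, which encodes ARP2, was lowered from 728, 443 and 419.7 to 479, 279 and 283 CPM (log2 fold change -0.61, SE 0.14, adjusted p = 0.017), and Arpc4 was lowered as well (log2 fold change -0.56, SE 0.12, adjusted p = 0.016), both with an interval inside the 2-fold bound. For Actr2 the groups overlapped, replicate 1 being the highest of each. Arpc5, the smallest subunit, read 64.5, 67.9 and 67.1 CPM in self-renewing cells, 48.7, 62.0 and 81.7 CPM with CK666 and 76.6, 139 and 158 CPM in withdrawn controls; its interval against self-renewing cells was -0.48 to 0.32, and in withdrawn controls it was raised (log2 fold change 0.84, SE 0.18, adjusted p = 0.0053). Without replicate 1 the lowered subunits numbered 4, and without the block or without replicate 2 or 3 they numbered 0. Without the replicate block the adjusted p was 0.27 for Actr2 and 0.21 for Arpc4. In the fit that omitted replicate 2, the adjusted p was 0.14 for Actr2 and 0.11 for Arpc4. When replicate 3 was omitted, the adjusted p reached 0.13 for Actr2 and 0.087 for Arpc4.

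Activators of the complex and other filament nucleators were mixed. Of 17 WASP and WAVE genes 10 were within 2-fold, 4 lowered and 2 raised, the raised ones being Cyfip2 and Wasf1 (log2 fold change 0.61, SE 0.14, adjusted p = 0.018). Arpin, which encodes an inhibitor of the Arp2/3 complex, fell from 18.1, 11.5 and 6.92 to 4.08, 2.15 and 3.24 CPM (log2 fold change -1.89, SE 0.34, adjusted p = 0.0081), with no overlap. The WAVE subunit Cyfip2 rose by 1.30 (SE 0.16, adjusted p = 0.0018), while Wasl, or N-WASP, and cortactin, Cttn, were within 2-fold (intervals -0.15 to 0.46 and -0.25 to 0.39). The lowered count was 2 without the block and 1 without replicate 3. Formins, which build unbranched filaments, were raised in 4 and lowered in 2 of 14 cases. Inf2 rose by 1.24 (SE 0.15, adjusted p = 0.0019) and Fmnl2 by 1.21 (SE 0.18, adjusted p = 0.0043), Fmnl1 fell by 2.83 (SE 0.24, adjusted p = 0.00059), and Diaph1 was within 2-fold (interval -0.23 to 0.47). Without replicate 3, 2 formins were raised, and the lowered numbered 1 without the block, without replicate 2 or 3 and with length-scaled counts. Without the replicate block the adjusted p was 0.11 for Wasf1. Leaving out replicate 2 gave an adjusted p of 0.086 for Wasf1. In the fit that omitted replicate 3, the adjusted p was 0.17 for Wasf1.

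Most targets of SRF and MRTF rose above the self-renewing level under CK666. Of 22 tested members 14 were raised, 2 lowered, 4 within 2-fold and 2 undecided, with a median log2 fold change of 1.75, against 2.01 in withdrawn controls; 9 were raised without replicate 2, and 1 was lowered without the block or without replicate 2 or 3. The promoters of 3 members are shown because each holds a CArG box, the site that SRF binds, within 250 bases upstream of the start. Of these, 2 were raised and 1 was not. Sequences are from RefSeq on GRCm38.p6, on the gene's strand, with CArG boxes in capitals.
Myl9, plus strand, chr2:156775268-156775347: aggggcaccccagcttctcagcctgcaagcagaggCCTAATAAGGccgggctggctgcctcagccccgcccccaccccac
Srf, minus strand, chr17:46556200-46556279: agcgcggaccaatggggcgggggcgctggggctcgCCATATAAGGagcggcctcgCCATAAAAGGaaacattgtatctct
Vcl, plus strand, chr14:20929148-20929227: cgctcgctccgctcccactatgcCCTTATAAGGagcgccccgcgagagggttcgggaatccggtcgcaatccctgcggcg
CArG boxes were searched on both strands and found in 482 of 32851 windows (1.47%), and upstream of 8 of the 20 SRF and MRTF targets with a listed start. Of those 8, 5 were raised, 2 were within 2-fold and 1 was not tested. Genes were again counted by any window and the background by window, so these shares are not directly comparable. A match describes the sequence only.

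Myl9, a regulatory light chain of myosin II, read 0.442, 0.209 and 0.121 CPM in self-renewing cells, 5.12, 16.3 and 31.0 CPM with CK666 and 8.39, 68.4 and 48.3 CPM in withdrawn controls (log2 fold change 5.68, SE 0.73, adjusted p = 0.0024). Srf itself read 35.6, 34.9 and 28.9 CPM, 107, 85.4 and 106 CPM and 143, 134 and 151 CPM in the same order (log2 fold change 1.59, SE 0.16, adjusted p = 0.0011). For both genes every CK666 library was above every self-renewing one, and for Srf every CK666 library was also below every withdrawn control. Zyx, zyxin of focal adhesions, rose by 2.43 (SE 0.28, adjusted p = 0.0016), Tpm1, a tropomyosin, by 1.98 (SE 0.28, adjusted p = 0.0032), and Ccn2, a matricellular protein shared with the YAP pathway, by 3.71 (SE 0.15, adjusted p = 0.00011). Vcl, vinculin, which couples adhesions to actin, did not: it read 181, 114 and 111 CPM in self-renewing cells, 125, 109 and 135 CPM with CK666 and 203, 277 and 289 CPM in withdrawn controls (interval -0.52 to 0.32 against self-renewing cells). Of the exonic bases of Vcl 25.5% also belong to another annotated gene. Actb, cytoplasmic beta-actin, was within 2-fold (interval -0.68 to 0.62) although its self-renewing replicate 1, at 5060.1, 916 and 1124 CPM in order, stood far above the others. Actg1, gamma-actin, rose by 1.31 (SE 0.37, adjusted p = 0.039). Of 14 genes of myosin II and its regulators, Myl9 among them, 9 were within 2-fold, including Myh9 (interval 0.08 to 0.92), 3 raised and 1 lowered, and the raised ranged from 1 without the block to 5 by DESeq2. Without the replicate block the adjusted p was 0.22 for Actg1. Without replicate 2 the adjusted p was 0.14 for Actg1. Leaving out replicate 3 gave an adjusted p of 0.22 for Actg1. With no low-count filter it was 0.071 for Actg1. Leaving out replicate 1 added calls of Actb (0.36, adjusted p = 0.016) and Myh9 (0.70, adjusted p = 0.0010). Myh9 was called with all 9 libraries (0.036), by DESeq2 (0.029) and by limma voom (0.047), with adjusted p in brackets.

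**Figure D3:**
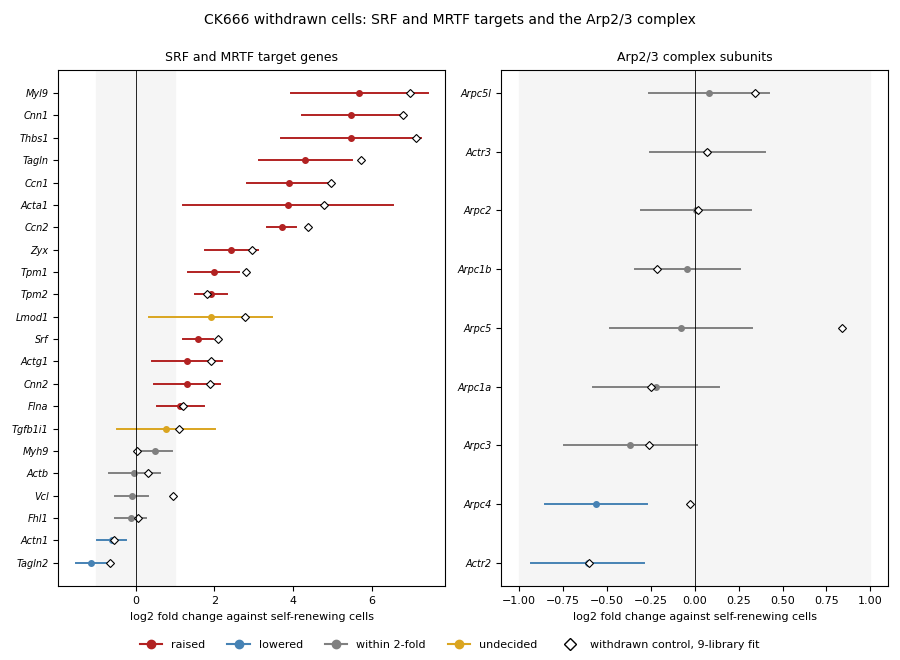
Log2 fold changes of SRF and MRTF targets and of Arp2/3 subunits in CK666 withdrawn cells against self-renewing cells, with 95% intervals (6 libraries); open diamonds are withdrawn controls against self-renewing cells in the 9-library fit, and the shaded band marks 2-fold. Of the SRF and MRTF targets 14 of 22 are raised, whereas all 9 Arp2/3 subunits have intervals inside the band.

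Of the BMP targets, 3 ID genes and Smad6 rose. The ID proteins, which block basic helix-loop-helix factors, are classical BMP targets. Id2 read 1.28, 5.28 and 4.86 CPM in self-renewing cells, 68.7, 94.3 and 96.8 CPM with CK666 and 23.5, 14.5 and 33.5 CPM in withdrawn controls (log2 fold change 4.66, SE 0.33, adjusted p = 0.00036). Smad6, an inhibitory SMAD that BMP signalling induces, read 5.50, 8.21 and 5.47, 21.4, 26.7 and 32.8 and 9.70, 8.30 and 9.23 CPM in the same order (log2 fold change 2.08, SE 0.24, adjusted p = 0.0016). For both genes the CK666 libraries lay above every library of the other groups. Id1 rose by 3.22 (SE 0.17) and Id3 by 5.16 (SE 0.73; adjusted p = 0.00019 and 0.0034). In withdrawn controls the log2 fold changes were 2.71 for Id2, 0.52 for Smad6, 1.54 for Id1 and 4.73 for Id3. The receptor Bmpr1a and the effector Smad5 held their level (intervals 0.03 to 0.76 and -0.30 to 0.42), and the ligand Bmp4 was undecided (interval -1.49 to 0.05). In the whole list 7 of 17 were raised, 1 lowered, 3 within 2-fold and 6 undecided, and the raised numbered 4 without the block and also without replicate 2 or 3, and the lowered 0 to 2 over all fits. With replicate 1 left out, a call was gained for Bmpr1a (0.57, adjusted p = 0.0055). Bmpr1a was called with all 9 libraries (0.037), with adjusted p in brackets.

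Nodal signalling genes split. The ligand Nodal was within 2-fold (interval 0.12 to 0.87) and the related ligand Gdf3 as well (-0.77 to -0.02). Lefty2, a secreted Nodal antagonist, read 749, 213 and 434 CPM in self-renewing cells and 47.2, 17.0 and 23.5 CPM with CK666 (log2 fold change -3.94, SE 0.17, adjusted p = 0.00011), while its neighbour and relative Lefty1 rose by 1.04 (SE 0.13, adjusted p = 0.0018). Tdgf1, the coreceptor CRIPTO, fell from 572, 918 and 942 to 261, 149.9 and 166 CPM (log2 fold change -2.08, SE 0.31, adjusted p = 0.0040), where withdrawn controls stood at 512, 352 and 429.8 CPM. The processing protease Pcsk6 fell by 2.49 (SE 0.16, adjusted p = 0.00029). Over the list 7 of 16 were raised and 4 lowered, with 5 within 2-fold; 4 were raised without the block, 4 without replicate 2 and 3 without replicate 3. A fit with no replicate block gave an adjusted p of 0.18 for Lefty1. With replicate 1 left out, the calls gained here were Nodal (0.63, adjusted p = 0.0076) and Gdf3 (-0.53, adjusted p = 0.018). Nodal was called with all 9 libraries (0.039), by DESeq2 (0.045), by limma voom (0.046) and with no low-count filter (0.040), with adjusted p in brackets.

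Among WNT, NOTCH and YAP pathway genes part of each list rose. Of 14 WNT genes 6 were raised: Tcf7, a TCF factor, went from 65.1, 52.3 and 52.8 to 148, 133 and 165 CPM (log2 fold change 1.39, SE 0.14, adjusted p = 0.0011) and Nkd2, a feedback inhibitor of WNT signalling, from 2.21, 2.25 and 2.07 to 13.4, 11.1 and 12.2 CPM (log2 fold change 2.49, SE 0.27, adjusted p = 0.0013), both without overlap. Axin2, the common WNT reporter gene, was undecided (interval -0.03 to 1.00), and beta-catenin, Ctnnb1, was within 2-fold (-0.34 to 0.41). Of 15 NOTCH genes 7 were raised, 3 without replicate 3. Notch3 rose by 2.51 (SE 0.31, adjusted p = 0.0020) and the ligand Jag2 by 2.45 (SE 0.29, adjusted p = 0.0018), Notch4 fell by 2.81 (SE 0.34, adjusted p = 0.0019), and the target Hes1 was within 2-fold (interval -0.82 to 0.05). Of 17 YAP pathway genes 9 were raised, 5 without replicate 3; some, such as Ccn1 and Ccn2, also belong to the SRF and MRTF targets. Ajuba, a LATS inhibitor, rose by 2.45 (SE 0.14, adjusted p = 0.00025), and Tead4 fell from 121, 65.9 and 84.4 to 7.87, 7.76 and 8.88 CPM (log2 fold change -3.42, SE 0.22, adjusted p = 0.00029). With length-scaled counts the adjusted p was 0.26 for Notch4. Leaving out replicate 1 added a call of Axin2 (0.69, adjusted p = 0.029).

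Glycolysis and hypoxia genes fell below the self-renewing level. Of 29 tested members 20 were lowered, 1 within 2-fold and 8 undecided (median -1.51). In withdrawn controls 11 of the members were lowered, 1 was raised and the median was -0.53. Slc2a1, the glucose transporter GLUT1 (chromosome 4, 119108711 to 119137983), read 763, 825 and 792 CPM in self-renewing cells, 289.9, 237 and 312 CPM with CK666 and 893, 845 and 627 CPM in withdrawn controls (log2 fold change -1.51, SE 0.16, adjusted p = 0.0013). Bnip3, a mitophagy receptor and target of the hypoxia factor HIF1, read 148, 287 and 282, 50.9, 71.6 and 55.6 and 188, 100.3 and 121 CPM in the same order (log2 fold change -1.96, SE 0.18, adjusted p = 0.00075). The CK666 libraries of both genes were below every library of the other groups. Pfkp, a phosphofructokinase, went from 535, 894 and 746 to 86.5, 120.3 and 62.6 CPM (log2 fold change -3.02, SE 0.22, adjusted p = 0.00038) and stood at 76.5, 96.6 and 109 CPM in withdrawn controls, where all 3 libraries fell inside the CK666 range. Ndufa4l2, a hypoxia-induced protein that replaces a subunit of the respiratory chain, went from 8.55, 100.0 and 69.0 to 0.427, 1.76 and 1.06 CPM (log2 fold change -5.57, SE 0.34, adjusted p = 0.00025).

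Further members of the glycolysis list showed where replicates disagreed. Aldoa, aldolase A, read 2598, 3058 and 2478 CPM in self-renewing cells, 1492, 1197 and 1141 CPM with CK666 and 2318, 2507 and 2254 CPM in withdrawn controls (log2 fold change -1.08, SE 0.19, adjusted p = 0.0073). Ldha, the A chain of lactate dehydrogenase, read 965, 1162 and 1009, 829.6, 189 and 223 and 1551, 873 and 1115 CPM (log2 fold change -1.69, SE 0.46, adjusted p = 0.033). For Aldoa the CK666 libraries were all below the other groups; for Ldha replicates 2 and 3 were low with CK666 and replicate 1 was close to the self-renewing level. Hexokinases Hk1 and Hk2 fell, with log2 fold changes of -2.34 and -1.64 (adjusted p = 0.00049 and 0.0017). Pdk1, the kinase that inhibits pyruvate dehydrogenase, was within 2-fold (interval -0.66 to 0.56), and Gapdh, Eno1, Pkm and Pgk1 were among the undecided. The lowered members numbered 15 without the block, 26 without replicate 1, 12 without replicate 2 and 11 without replicate 3. A fit with no replicate block gave an adjusted p of 0.16 for Ldha. Without replicate 2 the adjusted p was 0.069 for Aldoa and 0.13 for Ldha. Leaving out replicate 3 gave an adjusted p of 0.080 for Aldoa and 0.19 for Ldha. With no low-count filter it was 0.24 for Ldha.

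**Figure D4:**
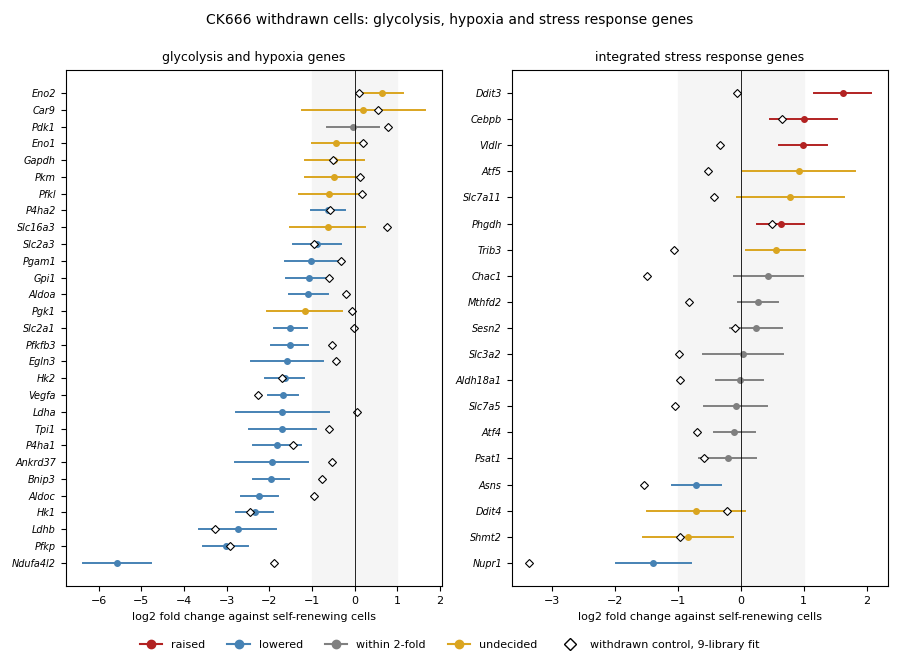
Log2 fold changes of glycolysis and hypoxia genes and of integrated stress response genes in CK666 withdrawn cells against self-renewing cells, with 95% intervals (6 libraries); open diamonds are withdrawn controls against self-renewing cells in the 9-library fit, and the shaded band marks 2-fold. In the first list 20 of 29 genes are lowered. In the second, Chac1, Atf4 and Slc3a2 have intervals inside the band while their diamonds lie to the left, though Slc3a2 was called lowered without replicate 1.

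Most genes of respiration and of ribosomal proteins were within 2-fold with all replicates, and part of the respiratory genes fell without replicate 1. Of 53 genes of the respiratory chain and ATP synthase 46 were within 2-fold and 2 lowered (7 with all 9 libraries, 0 without the block or without replicate 2 or 3), and of 55 cytosolic ribosomal protein genes 49 were within 2-fold. No ribosomal gene was called by limma voom or by edgeR with all replicates, 1 was raised by DESeq2, and 1 had an unadjusted p under 0.05. Atp5a1, the alpha subunit of ATP synthase, read 636, 676 and 562 CPM in self-renewing cells and 718, 568 and 573 CPM with CK666 (interval -0.38 to 0.36). Rps3, a ribosomal protein of the small subunit, read 619, 1918 and 1598 and 949, 1808 and 1591 CPM (interval -0.30 to 0.66). For Rps3 replicate 1 was the lowest library of both groups, and for Atp5a1 the groups overlapped with no such order. Of 13 mitochondrially encoded transcripts 11 were within 2-fold; edgeR with the block called none in the 6 libraries, though 1 was raised with no low-count filter, DESeq2 and limma voom raised 2 each, and 4 had an unadjusted p under 0.05. Replicate 1 decided part of this: without it 30 respiratory genes were lowered, 4 ribosomal genes were lowered and 2 mitochondrial transcripts were raised, and summed respiratory CPM was 6292, 10829 and 10005 in self-renewing cells and 6890.3, 8275 and 7701 with CK666.

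Lipid synthesis fell in part. Of 29 cholesterol and fatty acid synthesis genes 14 were lowered, 2 raised and 13 within 2-fold; the lowered numbered 3 without the block, 6 without replicate 2 and 7 without replicate 3, and the raised 0 without the block. Scd1, a stearoyl-CoA desaturase, read 385, 356 and 198 CPM in self-renewing cells and 114, 113 and 108 CPM with CK666 (log2 fold change -1.42, SE 0.20, adjusted p = 0.0033), and its relative Scd2 fell by 1.19 (SE 0.19, adjusted p = 0.0050). Fasn, fatty acid synthase, and the sterol regulator Srebf2 were within 2-fold (intervals 0.09 to 0.88 and -0.24 to 0.51). Of 18 folliculin, TFE3 and lysosome genes 6 were raised, 3 lowered and 8 within 2-fold, and the raised numbered 3 without the block and 12 without replicate 1. Of these, Mitf fell by 4.38 (SE 0.18, adjusted p = 0.00011) and Tfeb fell by 3.01 (SE 0.37, adjusted p = 0.0019), whereas Tfe3 and the lysosomal protein Lamp1 were within 2-fold (intervals -0.25 to 0.79 and -0.31 to 0.45). Leaving out replicate 1 added a call of Fasn (0.41, adjusted p = 0.048). Fasn was called with all 9 libraries (0.021), by DESeq2 (0.024) and by limma voom (0.048), with adjusted p in brackets.

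The integrated stress response genes were split between several states, in shares near those over all genes (31.6% called against 28.9%). Of 19 tested members 8 were within 2-fold, 4 raised, 2 lowered and 5 undecided (median 0.24), where withdrawn controls had 11 lowered and 2 raised (median -0.69). Promoters of 3 members are shown because each holds TTGCATCA, a composite site of ATF4 and C/EBP proteins, within 250 bases upstream of a start (in Vldlr in 1 of its 2 listed windows), and 1 of the 3 was within 2-fold, 1 raised and 1 lowered. Sequences are from RefSeq on GRCm38.p6, on the gene's strand, with the motif in capitals.
Chac1, plus strand, chr2:119351013-119351092: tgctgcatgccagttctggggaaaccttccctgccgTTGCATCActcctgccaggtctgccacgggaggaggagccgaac
Vldlr, plus strand, chr19:27216784-27216863: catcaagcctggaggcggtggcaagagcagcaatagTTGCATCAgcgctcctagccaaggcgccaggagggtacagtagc
Nupr1, minus strand, chr7:126625537-126625616: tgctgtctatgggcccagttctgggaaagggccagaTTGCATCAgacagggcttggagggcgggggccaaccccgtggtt
The motif was searched on both strands and found in 260 of 32851 windows (0.791%), and upstream of 4 of the 18 listed stress response genes with a start, the other being Slc7a11, which was undecided. Here too genes were counted by any window and the background by window, so the shares are not directly comparable. A match is not evidence of binding.

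Chac1, a glutathione-degrading enzyme that ATF4 induces, read 26.7, 13.0 and 24.4 CPM in self-renewing cells, 42.9, 22.2 and 21.6 CPM with CK666 and 11.9, 4.98 and 6.64 CPM in withdrawn controls. Its CK666 libraries overlapped the self-renewing ones (interval -0.11 to 0.98) and every withdrawn control was lower. Chac1 was picked from these libraries by that pattern, so its levels are a description with no test. Atf4 read 329.9, 235 and 249.9, 283, 253 and 216 and 163, 152 and 185 CPM in the same order, with an interval of -0.43 to 0.22 against self-renewing cells and log2 fold change -0.69, SE 0.14, adjusted p = 0.0046 in withdrawn controls. Ddit3, or CHOP, a factor of prolonged stress, went above the self-renewing level, at 12.9, 32.6 and 32.0 CPM against 39.8, 130.0 and 74.1 CPM (log2 fold change 1.62, SE 0.19, adjusted p = 0.0017), and Vldlr, a lipoprotein receptor, read 20.0, 20.5 and 22.2 against 41.9, 35.7 and 47.0 CPM (log2 fold change 0.99, SE 0.16, adjusted p = 0.0054). Every CK666 library was higher than all self-renewing ones for both genes. Nupr1, a stress-induced chromatin protein, was lowered from 12.3, 68.1 and 63.7 to 5.45, 35.8 and 15.0 CPM (log2 fold change -1.39, SE 0.25, adjusted p = 0.0081), with overlapping groups and 2.80, 4.98 and 3.78 CPM in withdrawn controls. The raised members numbered 1 without the block and 2 without replicate 3, and the lowered 7 without replicate 1, 0 without the block and 1 without replicate 2 or 3. Without the replicate block the adjusted p was 0.062 for Ddit3 and 0.29 for Nupr1. Without replicate 3 the adjusted p was 0.070 for Vldlr.

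Other stress programmes did not move as a block. Of 19 p53 genes 9 were raised and 4 lowered. Cdkn1a, which encodes the cell cycle inhibitor p21, fell from 148, 168 and 110.2 to 63.7, 55.7 and 39.8 CPM (log2 fold change -1.42, SE 0.14, adjusted p = 0.00091), while Pmaip1, the BH3 protein NOXA, rose by 1.20 (SE 0.19, adjusted p = 0.0049) and Mdm2 was within 2-fold (interval 0.04 to 0.65). The raised count was 3 without the block, 5 without replicate 2 and 2 without replicate 3, and the lowered count 1 without the block and 1 without replicate 3. Of 15 heat shock chaperones 8 were within 2-fold and 4 lowered, among them Hsp90aa1 (log2 fold change -1.14, SE 0.23, adjusted p = 0.013); the lowered numbered 0 without the block or without replicate 3, 2 without replicate 2, and 8 without replicate 1, with all 9 libraries, by DESeq2 and by limma voom. Hspa5, the endoplasmic reticulum chaperone BiP, was within 2-fold (interval -0.92 to -0.10). A fit with no replicate block gave an adjusted p of 0.074 for Pmaip1 and 0.15 for Hsp90aa1. In the fit that omitted replicate 3, the adjusted p was 0.15 for Hsp90aa1. With replicate 1 left out, the calls gained here were Mdm2 (0.38, adjusted p = 0.039) and Hspa5 (-0.32, adjusted p = 0.047). Hspa5 was called with all 9 libraries (0.033), by DESeq2 (0.022) and by limma voom (0.048), with adjusted p in brackets.

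Most genes of mitosis held their level, while G1 regulators went both ways and part of the replication machinery fell. Of 24 mitosis and cytokinesis genes 18 were within 2-fold, 2 raised and 3 lowered, with none lowered without the block or without replicate 2 or 3. Ccnb1, cyclin B1, read 387, 348 and 339 CPM in self-renewing cells and 324, 341 and 341 CPM with CK666 (interval -0.41 to 0.24), with overlapping groups. Of 28 replication genes 11 were lowered and 17 within 2-fold; the lowered numbered 2 without the block, 21 in the 9-library fit, 17 by DESeq2, 23 without replicate 1, 4 without replicate 2 and 1 without replicate 3. Rrm2, a subunit of ribonucleotide reductase, fell from 250.1, 371 and 345 to 152, 108 and 79.4 CPM (log2 fold change -1.53, SE 0.27, adjusted p = 0.0072). Of 20 MYC, D cyclin and G1 genes 5 were raised, 8 lowered and 6 within 2-fold; the lowered numbered 4 without the block, 5 without replicate 2, 4 without replicate 3 and 5 with length-scaled counts. Mycn read 72.3, 116 and 132 CPM in self-renewing cells, 32.7, 18.5 and 25.6 CPM with CK666 and 57.7, 90.7 and 87.0 CPM in withdrawn controls (log2 fold change -2.05, SE 0.29, adjusted p = 0.0036), and every CK666 library was below all the others. Its relative Myc rose by 2.82 (SE 0.31, adjusted p = 0.0013). Ccnd2, cyclin D2, rose from 1.92, 0.418 and 0.850 to 78.8, 10.8 and 20.8 CPM (log2 fold change 4.96, SE 0.27, adjusted p = 0.00018), Ccnd3 fell by 1.32 (SE 0.14, adjusted p = 0.0011), and Ccnd1 and Cdk4 were within 2-fold (intervals -0.33 to 0.79 and -0.29 to 0.48). A fit with no replicate block gave an adjusted p of 0.054 for Myc.

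Imprinted genes, expressed from 1 parental allele, rose almost as a group: 13 of 17 were raised, 1 lowered and 2 within 2-fold, and 6 were raised without the replicate block. Cdkn1c, the maternally expressed cell cycle inhibitor p57, read 7.91, 7.58 and 6.74 CPM in self-renewing cells and 100.5, 42.5 and 46.8 CPM with CK666 (log2 fold change 2.99, SE 0.26, adjusted p = 0.00067). Igf2, a paternally expressed growth factor, read 5.45, 2.88 and 4.50 and 18.3, 9.85 and 19.2 CPM (log2 fold change 1.88, SE 0.24, adjusted p = 0.0022). Dlk1, a paternally expressed NOTCH-like ligand, went from 0.590, 0.209 and 0.304 to 8.01, 3.34 and 3.24 CPM (log2 fold change 3.70, SE 0.47, adjusted p = 0.0022). The groups were apart for all 3 genes. Exonic bases shared with another annotated gene make up 64.5% of Igf2 and 30.7% of Cdkn1c, so their counts are uncertain. Plagl1, a paternally expressed zinc finger factor, was the lowered member (-1.82, SE 0.31, adjusted p = 0.0064). Genes of both parental origins were among the raised, and these data do not resolve alleles.

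Lineage genes gave no common direction. Of 7 tested primitive streak and mesoderm genes 2 were raised and 3 lowered, with none called without replicate 3, and 11 of 18 were too low to test. Of 11 endoderm genes 3 were raised and 3 lowered, and of 12 early neural genes 4 and 3. Without the block 1 gene was lowered in each of the 3 lists and 2 neural genes were raised, and without replicate 3, 1 endoderm gene was raised. Nes, nestin, an intermediate filament of neural progenitors, read 54.1, 70.8 and 51.7 CPM in self-renewing cells, 65.4, 45.2 and 83.8 CPM with CK666 and 128, 143 and 186 CPM in withdrawn controls (interval -0.49 to 0.72 against self-renewing cells; in withdrawn controls log2 fold change 1.34, SE 0.22, adjusted p = 0.0012). Sox11, an SRY-box factor, rose from 1.47, 4.86 and 6.26 to 91.7, 47.1 and 69.2 CPM (log2 fold change 4.12, SE 0.52, adjusted p = 0.0022), and Sox1, a neural SRY-box factor, was within 2-fold (interval -0.85 to 0.84). Vim, vimentin, fell from 253, 137 and 164 to 95.8, 62.6 and 58.4 CPM (log2 fold change -1.34, SE 0.13, adjusted p = 0.00098). Markers of the two-cell-like state were almost silent: of 3 tested, edgeR with the block and DESeq2 called none in the 6 libraries, edgeR without the block, edgeR with all 9 libraries and limma voom raised 1 each, and 1 had an unadjusted p under 0.05. With no low-count filter the adjusted p was 0.062 for Sox11.

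The stem cell identity of the cultures and the traces of other cells were checked from marker lists. Pou5f1 was at or above 767 CPM in all 6 libraries. Other stem cell markers moved with CK666, as described above: Sox2 and Zfp42 were lowered and Lin28a was raised. The level of Pou5f1 alone therefore does not show an unchanged identity. Summed over 10 fibroblast markers, self-renewing libraries had 83.8, 132 and 110.4 CPM and CK666 libraries 113, 95.9 and 125 CPM, most of it Fbln1, which was within 2-fold; 2 of 7 tested markers were raised (0 without replicate 3, 4 with all 9 libraries and by DESeq2), and Lum was at 0 in all 6 libraries. Over 14 trophoblast markers the sums were 155, 134 and 139 and 125, 289.9 and 391 CPM, with 2 of 8 tested markers raised and 2 lowered, and 4 raised without replicate 1. Tpbpa and Psg28 were at 0 in all 6 libraries, and Krt18, described above with the epithelial genes, made up most of the sum with CK666. The part of other cells in any result was not tested. In bulk RNA a change in the share of cells with a gene and a change of its level per cell cannot be told apart.

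The largest changes of all fell partly outside these functions. Enpp2, the enzyme autotaxin that makes lysophosphatidic acid, had no count in any self-renewing library and 113, 45.3 and 78.9 CPM with CK666, at least 508-fold higher against a floor of 3 counts per library. Kif1a, a kinesin of vesicle transport, read 6.54, 3.50 and 4.74 CPM in self-renewing cells and 358, 263 and 592 CPM with CK666 (log2 fold change 6.31, SE 0.27, adjusted p = 0.00011). Car4, a membrane-bound carbonic anhydrase, read 0, 0.261 and 0 and 76.9, 111 and 132 CPM. All 3 genes were on in every CK666 library and at similar levels in withdrawn controls (186, 53.7 and 41.1 CPM for Enpp2, 513, 341 and 438 CPM for Kif1a and 50.6, 146 and 69.2 CPM for Car4). Among the lowered, A2m, a protease inhibitor, read 174, 316 and 224 CPM in self-renewing cells, 3.08, 3.40 and 2.57 CPM with CK666 and 7.43, 9.34 and 7.93 CPM in withdrawn controls (log2 fold change -6.25, SE 0.21, adjusted p = 0.00011). Grin1, a subunit of NMDA receptors, read 26.1, 42.2 and 33.6, 0.284, 1.13 and 0.782 and 4.63, 10.4 and 7.02 CPM in the same order (log2 fold change -5.60, SE 0.31, adjusted p = 0.00019), and Xaf1, an apoptosis factor induced by interferon, 46.2, 21.7 and 26.8, 0.379, 0.226 and 0.168 and 0.675, 1.92 and 0.810 CPM (log2 fold change -6.89, SE 0.29, adjusted p = 0.00011). For these 3 genes every CK666 library was below every withdrawn control. In the 9-library fit that difference had an adjusted p of 0.012 for A2m, 0.0055 for Grin1 and 0.091 for Xaf1. The CK666 libraries held 15 counts of Xaf1 in all, so its order and fold change rest on levels near the floor. Not all of the largest falls are named, and Klf4 and Jam2, also among them, overlapped the withdrawn controls.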

How the data were processed

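Poly-T selected RNA of 9 cultures was sequenced from NEBNext Ultra libraries, per the labels' protocols. The authors deposited per library a table of 119414 Ensembl transcripts with length, effective length, estimated counts and TPM, per the file headers. The deposited estimated counts are not normalized; the authors' TPM are scaled per library after division by effective length. FastQC, cutadapt 1.8.1, kallisto and sleuth, and the builds mm10 and GRCh38, are named without roles, per the submitters' processing notes; whether strand was used is not given in the sources used here.

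GENCODE M21 (GRCm38) gave the gene of each Ensembl transcript. Of the transcripts 116640 (97.7%) matched 35896 genes; the rest held 0.895% to 1.08% of counts and were left out. Deposited effective lengths served one alternative, length-scaled counts. Counts were summed per gene and rounded. The main test was edgeR 4.0.16 (R 4.3.3), quasi-likelihood, TMM, filterByExpr, replicate block, 6 libraries, 2 residual degrees of freedom per gene, Benjamini-Hochberg over all genes tested. Withdrawn controls came from a fit of all 9 libraries. That comparison shares the self-renewing libraries, so its values stand beside and support nothing. Alternatives were no block, all 9 libraries, RLE factors, DESeq2 1.42.0, limma 3.58.1 voom, other filters, length scaling and each replicate pair left out.

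The pairing is stated by the series. Deviations from group means of same-numbered libraries correlated at 0.55, 0.43 and 0.33 across genes, and of others at -0.50 to 0.31. Replicates 2 and 3 across groups correlated at 0.31 and 0.26, close to the 0.33, and every negative value involved replicate 1. The correlations thus set replicate 1 apart more than they show the pairing. With the block the common biological coefficient of variation fell from 0.362 to 0.231. No 2 libraries of a group agreed within sampling noise (chi-square per gene 17.2 to 218). P-values measure the spread between these cultures only. On 1 set of simulated counts the blocked tests recovered most 4-fold and fewer of the 2-fold changes, with a share of false calls above the threshold.

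Members and function lists were chosen with earlier results of these data known; lists were written from general knowledge. Named genes were, by rule, the 8 raised and 8 lowered protein-coding genes of largest change (mean log2 CPM of at least 3, one direction in all pairs), up to 3 called and 2 within-bound members per list, marked members, and up to 10 genes moved by withdrawal and within 2-fold here; some of these were left out. Ajuba, Aldoa, Ddx4, Dlk1, Dppa2, Dppa4, Eno1, Fgf4, Gapdh, Gbx2, Hk1, Il6st, Itga3, Itgb5, Jag2, Jak1, Klf5, L1td1, Lamb1, Lum, Meioc, Nr5a2, Pkm, Plagl1, Psg28, Rbpj, Slc7a11, Spred2, Spry1, Srebf2, Tcf15, Tet3, Tpbpa, Tpm1, Uhrf1, Vldlr, Wasf1 and Zfp281 were chosen after their values were seen. Promoters, 250 bases upstream of RefSeq starts, were searched on both strands.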

Additional observations from a re-analysis of the deposited data

How the results depend on the processing

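With only 3 cultures per group and 2 residual degrees of freedom per gene, the number of calls depended on the model more than on the scaling. Without the replicate block 2244 genes were called, 1336 raised and 908 lowered, and 5 function lists had most of their tested members called in 1 direction, against 10 with the block. That number of lists was 18 with all 9 libraries, 18 by DESeq2 and 16 by limma voom. Leaving out 1 replicate pair gave 1608 to 5744 called genes, 862 to 3068 raised, 746 to 2676 lowered, 4918 to 7409 with an interval within 2-fold and 4 to 20 such lists. The main interval count was 6862, and a bound of 1.5-fold lowered it to 2585. RLE size factors, DESeq2, limma voom, all 9 libraries, no low-count filter, a minimum of 1 CPM in 3 libraries and length-scaled counts left the called, raised and lowered counts within 1.5 times of the main ones.

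Of 113 genes named in the text as raised or lowered, 101 stayed called without the block, all 113 without replicate 1, 105 without replicate 2 and 102 without replicate 3; those lost are named with their adjusted p beside the result. Of 71 named genes that were not called, 23 gained a call without replicate 1, 10 with all 9 libraries, 8 by DESeq2, 8 by limma voom, 4 with no low-count filter and 1 each with RLE factors and without replicate 2. Gains not given beside their results were of Eno1, Gapdh, L1td1, Pgk1, Pkm, Rbpj, Slc3a2 and Trim28. Without the low-count filter 6 calls were lost (Actg1, Cldn6, Dusp6, Ldha, Sox11 and Tbx3) and with length-scaled counts 3 (Notch4, Tbx3 and Tet1). Without replicate 1, 2 genes changed sign and were called: Actb at 0.36 and Slc3a2 at -0.37 on the log2 scale (adjusted p = 0.016 and 0.018). Leaving out each replicate in turn, Actb ranged from -0.29 to 0.36 and Slc3a2 from -0.37 to 0.26. The depth sets a floor of 0.133 to 0.178 CPM per library. Which genes were compared was set by the low-count filter and not by this floor: 14098 genes passed it, against 21760 tested without it.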

Other observations

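Some genes that withdrawal moves were within 2-fold of the self-renewing level, and not called, in CK666 withdrawn cells. They were picked from these libraries by that pattern, so their values are a description and carry no test of it. Tes, a LIM protein of focal adhesions, read 17.7, 14.6 and 14.2 CPM in self-renewing cells, 20.4, 14.2 and 21.4 CPM with CK666 and 43.5, 32.8 and 47.5 CPM in withdrawn controls. Fhod3, a formin of sarcomeres, read 42.1, 44.7 and 56.9, 61.5, 40.5 and 38.2 and 29.2, 14.1 and 12.3 CPM in the same order. Tes was high and Fhod3 low in every withdrawn control against every library of the other groups. Slc1a5, a transporter of neutral amino acids including glutamine, read 124, 149.8 and 124, 120.2, 93.6 and 71.9 and 51.1, 45.7 and 52.1 CPM. Rnf165, a ubiquitin ligase of BMP signalling, read 50.3, 31.4 and 44.0, 52.7, 25.4 and 28.6 and 22.4, 5.66 and 8.20 CPM. For both, withdrawn controls were the lowest group in every library, and for Slc1a5 every CK666 library was also below every self-renewing one. In the self-renewing comparison the intervals were -0.23 to 0.75 for Tes, -0.59 to 0.49 for Fhod3, -0.91 to -0.09 for Slc1a5 and -0.71 to 0.15 for Rnf165, all within the 2-fold bound. With replicate 1 left out, the calls gained here were Slc1a5 (-0.72, adjusted p = 0.0018) and Rnf165 (-0.45, adjusted p = 0.044). Slc1a5 was called with all 9 libraries (0.044) and by DESeq2 (0.043), with adjusted p in brackets.

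Immediate early genes, which serum and ERK signalling induce within minutes, did not share a direction. Jun rose from 8.01, 6.59 and 6.74 to 26.2, 25.5 and 39.7 CPM (log2 fold change 2.07, SE 0.23, adjusted p = 0.0014). Ier3 fell from 4.18, 22.8 and 20.0 to 1.47, 1.93 and 2.12 CPM (log2 fold change -2.80, SE 0.44, adjusted p = 0.0050). Fos and Egr1 were undecided (intervals -3.36 to -0.33 and 0.51 to 3.93), with 6.90, 7.94 and 25.1 CPM of Egr1 in withdrawn controls against 0.711, 2.04 and 1.51 CPM with CK666 and 0.197, 0.209 and 0.486 CPM in self-renewing cells. Of 11 tested members 3 were raised, 3 lowered and 3 within 2-fold; the lowered numbered 1 without the block and 1 without replicate 3. Leaving out replicate 1 added a call of Egr1 (2.38, adjusted p = 0.024). With replicate 2 left out, a call was gained for Fos (-2.77, adjusted p = 0.027). Fos was called by DESeq2 (0.017) and with no low-count filter (0.041); Egr1 was called with all 9 libraries (0.0072) and by limma voom (0.050), with adjusted p in brackets.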
